A study of Mus musculus with 27 samples.

Results

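The carnitine shuttle and the acyl-CoA synthetases that feed it were followed through liver regrowth after partial hepatectomy, with and without etomoxir. The set was chosen by gene symbol and held 10 of the 54532 genes in the deposited table: Slc22a5, Acsl1, Acsl3, Acsl5, Cpt1a, Slc25a20, Cpt2, Crat, Crot and Mlycd. All 10 were among the 12376 genes tested, which had at least 1 FPKM (fragments per kilobase of gene length, scaled to library size) in at least 4 libraries. Polyadenylated RNA had been sequenced in 27 liver libraries of wild-type C57/BL6J mice. The mice of 4 groups had lost 70% of the liver. PHx48_ETO livers (n = 4) were taken 48 h after resection from mice given etomoxir, an irreversible inhibitor of carnitine palmitoyltransferase 1, and PHx48 livers (n = 7) at 48 h from mice without it. PHx24_ETO livers (n = 4) were taken 24 h after resection from mice given etomoxir and PHx24 livers (n = 7) at 24 h from mice without it. The control livers (n = 5) came from sham-operated mice, for which the sample labels state no time. Etomoxir went into the peritoneum at 12.5 mg/kg, 4 h ahead of surgery in both treated groups, and PHx48_ETO mice had a further dose at 24 h whose size is not stated separately, so time and number of doses differed together between the treated groups. The sources used here do not say whether mice without etomoxir received a vehicle, and no group was given etomoxir without resection. Nor do they state that every library is of another mouse, and p-values therefore reflect the spread from library to library.

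Long-chain fatty acids are bound to coenzyme A by acyl-CoA synthetases before they can be burned or stored. The inner mitochondrial membrane does not let acyl-CoA pass, so carnitine palmitoyltransferase 1 swaps coenzyme A for carnitine at the outer membrane, a carrier moves the acylcarnitine inward and carnitine palmitoyltransferase 2 restores the acyl-CoA. Malonyl-CoA, the building block of fatty acid synthesis, blocks the first of these enzymes, and in liver several genes of the pathway are known targets of the fatty acid receptor PPARA.

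Libraries held 14903757 to 18446372 counts, and the genes of the set had 183 to 19927 counts in any library, so the spread between livers and not counting error set the precision. The 9 hepatocyte marker genes in the table, albumin among them, summed to 28049 to 71553 FPKM in every library. Skeletal muscle transcripts stood out in sham 1, PHx24 1 and PHx48 3 and exocrine pancreas transcripts in sham 2 and, less, in PHx48 3. The 7 pancreas genes summed to 846 FPKM in sham 2, 138 FPKM in PHx48 3 and at most 32.2 FPKM elsewhere. The 6 adipocyte genes summed to 219 FPKM in sham 1, 152 FPKM in PHx48 3 and 72.1 FPKM in PHx24 1. PHx24_ETO 2 had the lowest mean correlation with the other libraries of its group (0.9322, against at least 0.9445 in every other library). These are bulk samples, in which fewer cells of a type and less RNA per cell cannot be told apart.

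Expressed per gene length, Crot mRNA was the most abundant of the set in PHx48_ETO, PHx24_ETO, PHx24 and sham livers and Acsl5 mRNA in PHx48 livers, while Acsl3 and Slc22a5 mRNA were the lowest pair in every group but PHx24_ETO, where Crat stood between them. 3 patterns ran through the set. Etomoxir went with higher mRNA of the carnitine importer Slc22a5 and the carrier Slc25a20 at both times, and of the entry enzyme Cpt1a with a call at 24 h only. Resection went with lower Acsl1 and Mlycd mRNA at both times, and without etomoxir Acsl5 had the largest rise and Slc22a5 the largest fall of the 10 genes at 48 h against 24 h.

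**Figure D1:**
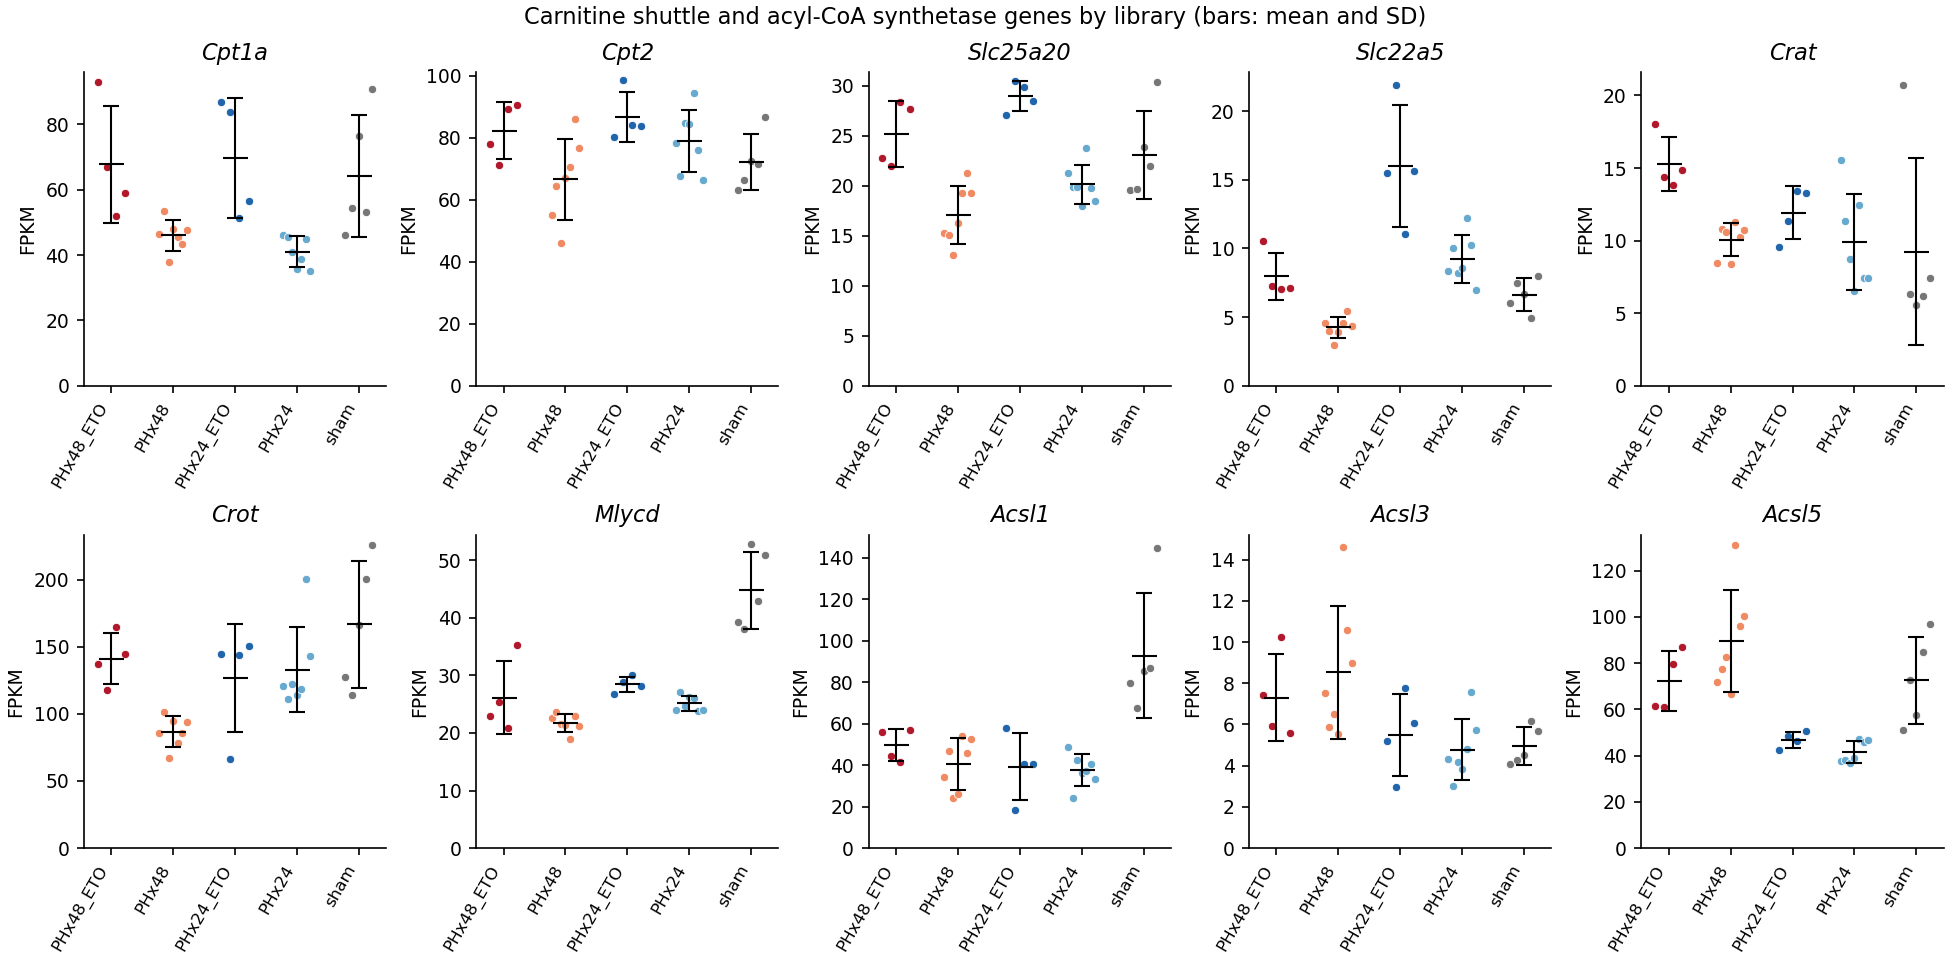
FPKM of the 10 genes (one panel each, vertical axis from 0) in every liver library, with PHx48_ETO, PHx48, PHx24_ETO, PHx24 and sham from left to right; points are libraries and bars the mean and SD. Slc25a20 points of both etomoxir groups lie above all points of the untreated livers of the same time, and Mlycd and Acsl1 points of all resected groups lie below all sham points.

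The promoters of the genes called higher with etomoxir at 24 h are shown because PPARA with its partner RXRA binds a direct repeat of AGGTCA with 1 base between the units. Sequences are from RefSeq on GRCm38.p6, 5′ to 3′ on the gene's strand, cut before the first transcribed base of either annotation, with capitals marking an exact AGGTCA on either strand. They cover chr19:3323051-3323300 on the plus strand for Cpt1a, chr9:108661886-108662087 on the plus strand for Slc25a20 and chr11:53891704-53891953 on the minus strand for Slc22a5.
Cpt1a: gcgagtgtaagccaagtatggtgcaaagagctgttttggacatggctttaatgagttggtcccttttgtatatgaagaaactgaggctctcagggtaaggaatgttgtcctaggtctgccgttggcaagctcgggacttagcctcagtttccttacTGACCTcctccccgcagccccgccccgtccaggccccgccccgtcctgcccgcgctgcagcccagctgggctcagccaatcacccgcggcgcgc
Slc25a20: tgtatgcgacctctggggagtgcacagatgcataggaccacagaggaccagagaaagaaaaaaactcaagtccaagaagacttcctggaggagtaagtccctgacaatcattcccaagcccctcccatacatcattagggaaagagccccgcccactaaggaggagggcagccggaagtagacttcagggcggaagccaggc
Slc22a5: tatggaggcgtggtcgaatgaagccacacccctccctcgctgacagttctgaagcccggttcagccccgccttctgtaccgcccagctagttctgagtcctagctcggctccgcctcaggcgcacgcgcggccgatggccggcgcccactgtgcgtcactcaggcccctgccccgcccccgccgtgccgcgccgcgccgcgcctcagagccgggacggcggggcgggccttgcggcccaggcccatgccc
RefSeq windows of 300 bases (250 before and 50 after the start) were found for 9 of the 10 genes, all but Crat, with a pair of windows for Acsl1. AGGTCANAGGTCA was searched on both strands with at most 3 mismatches over its 12 fixed letters. It was matched in 3 of the 9 genes, Slc25a20, Mlycd and Acsl5, and in 24.6% of all 32851 RefSeq promoter windows. The Acsl5 window (chr19:55253119-55253418) lay wholly inside the gene as the deposited table bounds it, which starts at 55251938 on the plus strand. The Slc25a20 match lay 7 to 19 bases after the RefSeq start and had 2 mismatches, which at most 2 mismatches allow in 3.86% of all windows, a stricter reading made after the match was seen. The Mlycd and Acsl5 matches had 3 mismatches each. They are shown with the Slc25a20 match, each as written on the gene's strand, at chr9:108662142-108662154, chr8:119394759-119394771 and chr19:55253355-55253367.
Slc25a20: AGGTGAAAGGTCG
Mlycd: TGGCCTCCGGCCT
Acsl5: GGGTCACAGAACA
An exact AGGTCA was found only in the Cpt1a window among the 9 genes, on the opposite strand 94 to 89 bases before the start, and in 16.3% of all windows. A match is a description of the letters, and a window without one says nothing of sites elsewhere.

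With etomoxir, 3 of the 10 genes were called higher and none lower at 24 h (edgeR's quasi-likelihood test, adjusted p under 0.05), against 2.9% of the 12376 genes (1.58% higher, 1.33% lower). At 48 h, 2 of the 10 were called higher and none lower, against 0.21% of all genes (0.129% higher, 0.0808% lower). The median log2 fold change of the 10 genes was 0.17 at 24 h and 0.43 at 48 h, beside 0.01 and -0.01 over all genes tested. At an unadjusted p under 0.05 the counts were 3 of the 10 at 24 h and 7 of the 10 at 48 h, against 2401 and 1004 of the 12376 genes.

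Some markers of other cell types had lower values in the treated livers. The 5 Kupffer cell genes summed to 35.6 to 76.0 FPKM in PHx24_ETO and 75.6 to 144 FPKM in PHx24 livers, with a median log2 fold change of -1.003. Of these genes edgeR called 1 lower. Counted without regard to direction, 4 were called by DESeq2 and 4 had an unadjusted p under 0.05. At 48 h their median was -0.02, with none called by edgeR or DESeq2 and none with an unadjusted p under 0.05. They then summed to 56.9 to 131 FPKM in PHx48_ETO and 45.0 to 137 FPKM in PHx48 livers. The 4 erythroid genes had a median of -1.37 at each time, none called by edgeR or DESeq2 and 4 at 24 h and 3 at 48 h with an unadjusted p under 0.05. They summed to 74.7 to 270.1 FPKM in PHx48_ETO and 163 to 1221 FPKM in PHx48 livers, and to 85.6 to 166 FPKM in PHx24_ETO and 192 to 432 FPKM in PHx24 livers. None of these 9 genes was at 0 throughout a group. Of the 9 hepatocyte genes, 1 was called higher and 1 lower at 24 h and 1 lower at 48 h. The part of these cells in the etomoxir results was not tested. Without the 4 libraries that held muscle or pancreas transcripts (sham 1, sham 2, PHx24 1 and PHx48 3), 3 of the 10 genes were called at 24 h and 2 at 48 h, against 320 and 30 genes in all. PHx48_ETO 4 stayed in this fit, although its 14 skeletal muscle genes summed to 96.0 FPKM, against 83.3 FPKM in sham 2.

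Slc22a5 encodes OCTN2, the transporter that brings carnitine into the cell (ENSMUSG00000018900, GRCm38 chromosome 11, 53864542 to 53891660). At 24 h it had 15.5, 21.9, 11.05 and 15.6 FPKM in PHx24_ETO livers, against a lowest, median and highest value of 6.96, 8.60 and 12.2 FPKM in PHx24 livers. All PHx24_ETO livers but the third lay above every PHx24 liver. It rose by 0.78 on the log2 scale (SE 0.17, 1.71-fold, edgeR adjusted p = 0.0155). At 48 h it had 10.5, 7.24, 7.03 and 7.09 FPKM in PHx48_ETO livers, against 2.94, 4.32 and 5.42 FPKM (lowest, median, highest) in PHx48 livers. The groups did not overlap, and the first treated liver stood above the other 3. The rise was 0.91 (SE 0.17, 1.88-fold, edgeR adjusted p = 0.0231). The 48 h call was lost without PHx48_ETO 1 (log2 fold change 0.74, edgeR adjusted p = 0.126), PHx48_ETO 3 (0.0752) or PHx48 7 (0.0501), and on log2(TPM + 1) with limma (adjusted p = 0.092).

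Cpt1a encodes the liver form of carnitine palmitoyltransferase 1, the target of etomoxir (ENSMUSG00000024900, chromosome 19, 3323301 to 3385732). PHx24_ETO livers had 86.9, 83.7, 51.3 and 56.7 FPKM, against 35.1, 40.8 and 46.3 FPKM (lowest, median, highest) in PHx24 livers. Every treated liver lay above every untreated one, and 2 of the 4 treated livers stood well above the others. Cpt1a mRNA rose by 0.75 on the log2 scale (SE 0.17, 1.68-fold, edgeR adjusted p = 0.0175). At 48 h PHx48_ETO livers had 93.0, 66.9, 51.8 and 59.1 FPKM, against 37.9, 46.5 and 53.4 FPKM (lowest, median, highest) in PHx48 livers. Here 3 of the 4 treated livers lay above all untreated ones, and the log2 difference of 0.55 (SE 0.17, 95% interval 0.21 to 0.90) was not called (edgeR adjusted p = 0.302).

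Slc25a20, the carnitine-acylcarnitine carrier of the inner membrane (ENSMUSG00000032602, chromosome 9, 108662088 to 108684641), was the gene of the set whose treated and untreated livers were apart at both times with a call at each. PHx24_ETO livers had 27.05, 30.4, 29.9 and 28.4 FPKM, against 18.0, 19.8 and 23.7 FPKM (lowest, median, highest) in PHx24 livers. PHx48_ETO livers had 22.7, 22.0, 28.4 and 27.6 FPKM, against 13.03, 16.3 and 21.3 FPKM in PHx48 livers. No treated liver fell within the range of the untreated livers of its time. The rise was 0.51 on the log2 scale at 24 h (SE 0.11, 1.42-fold, edgeR adjusted p = 0.0175) and 0.56 at 48 h (SE 0.11, 1.47-fold, edgeR adjusted p = 0.0305). The 48 h call was made in only 9 of 20 alternative settings or left-out libraries, with adjusted p up to 0.164 without PHx48_ETO 3, while its log2 fold change stayed between 0.49 and 0.67.

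The 24 h calls of all 3 genes were lost without PHx24_ETO 2, with edgeR adjusted p = 0.0736 for Cpt1a, 0.0556 for Slc25a20 and 0.0892 for Slc22a5, and their log2 fold changes were then 0.65, 0.48 and 0.59. They were also lost when only the compared groups entered the fit (adjusted p = 0.0767, 0.0522 and 0.0815), where no gene of the 12376 was called and 2058 had an unadjusted p under 0.05. The Slc25a20 call was further lost without PHx24_ETO 3 (edgeR adjusted p = 0.0556) and with no filter on low values (0.0507).

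None of the other 7 genes was called with etomoxir at either time. Crot, the carnitine octanoyltransferase of peroxisomes (ENSMUSG00000003623, chromosome 5, 8966033 to 8997324), had 137, 118, 165 and 145 FPKM in PHx48_ETO livers, against 67.2, 85.8 and 102 FPKM (lowest, median, highest) in PHx48 livers. These groups did not overlap, and the log2 fold change was 0.70 (95% interval 0.30 to 1.10, edgeR adjusted p = 0.192). At 24 h Crot had 145, 66.6, 144 and 151 FPKM in PHx24_ETO livers, against 111, 120 and 201 FPKM (lowest, median, highest) in PHx24 livers, a log2 fold change of -0.09 (95% interval -0.49 to 0.32). The second treated liver was the lowest of all livers of the series for this gene.

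Crat, the carnitine acetyltransferase that handles short acyl groups (ENSMUSG00000026853, chromosome 2, 30400471 to 30415813), had 18.0, 14.4, 13.8 and 14.9 FPKM in PHx48_ETO livers, against 8.41, 10.6 and 11.3 FPKM (lowest, median, highest) in PHx48 livers. Treated and untreated livers were apart, and the log2 fold change of 0.60 (95% interval 0.03 to 1.17) was not called (edgeR adjusted p = 0.6). Fitted on the compared groups only, Crat and Crot were both called at 48 h (edgeR adjusted p = 0.0356 and 0.0285). Cpt2, the transferase of the inner membrane (ENSMUSG00000028607, chromosome 4, 107903981 to 107923610), averaged 82.3 ± 9.27 FPKM in PHx48_ETO and 66.6 ± 13.2 FPKM in PHx48 livers (SD, n = 4 and 7), with overlapping groups. Its log2 fold changes with etomoxir were 0.31 at 48 h and 0.12 at 24 h, with 95% intervals of 0.05 to 0.56 and -0.13 to 0.37. The synthetases and Mlycd had log2 fold changes with etomoxir between -0.31 (Acsl5 at 48 h) and 0.30 (Acsl1 at 48 h), none of them called.

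**Figure D2:**
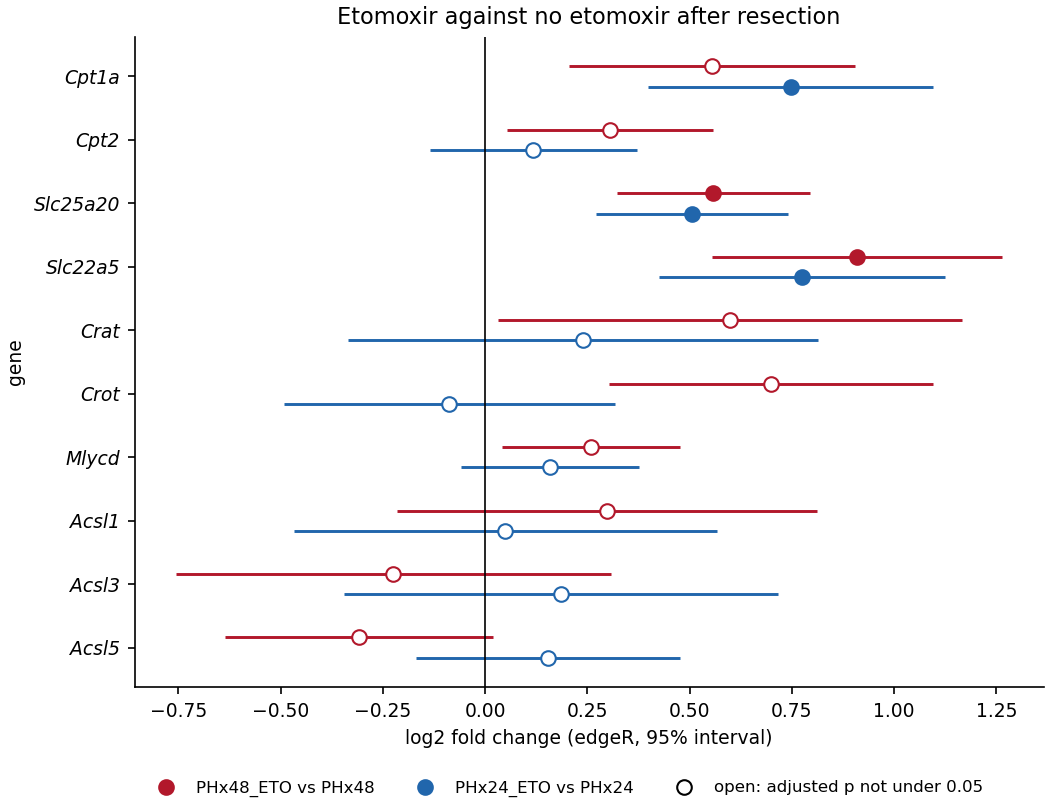
Log2 fold change of each gene with etomoxir against no etomoxir (horizontal axis), at 48 h (red) and 24 h (blue), with 95% intervals from edgeR; filled points were called at an adjusted p under 0.05. Slc25a20 and Slc22a5 are filled at both times and Cpt1a at 24 h.

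The effect of etomoxir at 48 h minus that at 24 h was called for none of the 10 genes by edgeR or DESeq2, against 0.0162% of all genes by edgeR. At an unadjusted p under 0.05 it held 2 of the 10, against 1064 of the 12376 genes. These were Crot (0.79 higher at 48 h on the log2 scale, 95% interval 0.22 to 1.36, edgeR adjusted p = 0.398) and Acsl5 (-0.46, 95% interval -0.92 to 0.00, adjusted p = 0.579). The difference was -0.19 for Cpt1a (95% interval -0.69 to 0.31), 0.05 for Slc25a20 (-0.29 to 0.39) and 0.14 for Slc22a5 (-0.37 to 0.64), and each of these intervals held 0.

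After resection without etomoxir, 5 of the 10 genes were called at 24 h against sham, 1 higher and 4 lower, against 35.0% of all genes (19.1% higher, 15.8% lower). At 48 h 7 of the 10 were called, 1 higher and 6 lower, against 36.5% of all genes (19.5% higher, 17.0% lower). Without the 4 libraries that held muscle or pancreas transcripts 7 were called at each time, and 3435 genes in all at 24 h and 3505 at 48 h, against 4326 and 4513 with every library. The median log2 fold change of the 10 genes was -0.24 at 24 h and -0.44 at 48 h, beside 0.01 over all genes at each time. Scaling by library totals in place of TMM moved the median gene by 0.11 at 24 h and 0.22 at 48 h, and TPM moved it by 0.19 and 0.32, so the changes below are relative to the typical gene. Of the 9 hepatocyte genes, 5 were called lower and 1 higher at 24 h and 4 lower at 48 h, with medians of -0.48 and -0.23. Of 5 sinusoidal endothelial genes, 2 were called lower at 24 h and 4 at 48 h, with medians of -0.53 and -0.58. Hepatocyte genes summed to 33113 to 46228 FPKM in PHx48, 28049 to 37343 FPKM in PHx24 and 33487 to 71553 FPKM in sham livers, and the endothelial genes to 13.7 to 23.4, 18.2 to 24.1 and 27.7 to 36.3 FPKM in the same groups. No gene of either list was at 0 throughout a group, and the part of these cells in the falls below was not tested. These comparisons and the etomoxir comparisons share the PHx24 and PHx48 livers, so their values for a gene are not independent.

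The synthetases went apart. Acsl1, the major long-chain acyl-CoA synthetase of liver (ENSMUSG00000018796, chromosome 8, 46471037 to 46536051), had 24.1, 46.0 and 54.0 FPKM in PHx48 livers and 24.4, 37.0 and 48.7 FPKM in PHx24 livers (lowest, median, highest), against 79.7, 67.4, 85.4, 86.8 and 145 FPKM in sham livers. All resected livers lay below all sham livers, and the fifth sham liver stood far above the rest. Acsl1 mRNA fell by 1.28 on the log2 scale at 24 h (SE 0.23, edgeR adjusted p = 0.000132) and by 1.18 at 48 h (SE 0.23, edgeR adjusted p = 0.000284), and both calls were made in all 21 alternatives. It was also below every sham liver in PHx48_ETO livers, with 55.9, 44.3, 41.5 and 57.1 FPKM, and in PHx24_ETO livers, with 57.9, 18.4, 40.4 and 40.6 FPKM. The log2 fold changes against sham were -0.88 in PHx48_ETO (edgeR adjusted p = 0.0172) and -1.23 in PHx24_ETO (edgeR adjusted p = 0.00131). The PHx48_ETO call was lost without sham 5 (0.0528), PHx48_ETO 2 (0.0506) or PHx48_ETO 3 (0.062) and in TPM with limma (adjusted p = 0.0751). Acsl1 shares exon bases with Gm45244 on the opposite strand, which averaged 0.0852 FPKM.

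Acsl5, a synthetase that in liver and gut lies on mitochondria and the endoplasmic reticulum (ENSMUSG00000024981, chromosome 19, 55251938 to 55297720), had 36.9, 39.1 and 47.4 FPKM in PHx24 livers (lowest, median, highest), against 51.0, 72.7, 57.7, 84.7 and 96.8 FPKM in sham livers. The groups did not overlap, and Acsl5 mRNA fell by 0.78 at 24 h (SE 0.15, edgeR adjusted p = 0.000186). At 48 h PHx48 livers had 66.6, 82.8 and 131 FPKM, all above the PHx24 livers. Against PHx24 the rise was 1.10 on the log2 scale (SE 0.14, 2.14-fold, edgeR adjusted p = 6.4e-06), and against sham PHx48 livers differed by 0.32 (95% interval 0.02 to 0.63, edgeR adjusted p = 0.0915). That last value was called when scaled by library totals (log2 fold change 0.56, adjusted p = 0.00082), in TPM (0.67, limma adjusted p = 5.38e-05) and without sham 5 (0.42, adjusted p = 0.0383). The 404 exon bases that Acsl5 shares with Zdhhc6 on the opposite strand can hold reads of either gene, since the kit does not mark strand.

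Between the treated groups Acsl5 also rose, with 61.4, 61.1, 79.6 and 87.0 FPKM in PHx48_ETO livers, against 42.4, 48.3, 46.5 and 50.6 FPKM in PHx24_ETO livers. These did not overlap, and the rise was 0.64 (SE 0.18, edgeR adjusted p = 0.0165), lost without PHx48_ETO 4 (0.0657) and with no filter on low values (0.0635).

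Acsl3, a synthetase of the endoplasmic reticulum and lipid droplets (ENSMUSG00000032883, chromosome 1, 78657825 to 78707743), was the lowest of these 3 synthetases in every group, with 5.54, 7.55 and 14.6 FPKM in PHx48 livers and 3.03, 4.31 and 7.56 FPKM in PHx24 livers (lowest, median, highest), against 4.10, 4.29, 4.54, 6.16 and 5.71 FPKM in sham livers. Of the 7 PHx48 livers, 3 lay above all PHx24 livers and 5 above all sham livers. Acsl3 mRNA rose by 0.80 against sham (SE 0.25, edgeR adjusted p = 0.0126) and by 0.83 against PHx24 (SE 0.22, edgeR adjusted p = 0.0143). Without the 4 libraries that held muscle or pancreas transcripts the rise against sham was 0.70 and not called (edgeR adjusted p = 0.0971). At 24 h the log2 fold change against sham was -0.03 (95% interval -0.53 to 0.47). Acsl3 shares 244 exon bases with Utp14b on the same strand.

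The mix of long-chain synthetase mRNA was described by a ratio and a sum. The Acsl5 to Acsl1 ratio of FPKM averaged 1.48 ± 0.341 in PHx48_ETO (SD, n = 4), 2.31 ± 0.58 in PHx48 (n = 7), 1.44 ± 0.819 in PHx24_ETO (n = 4), 1.15 ± 0.281 in PHx24 (n = 7) and 0.807 ± 0.204 in sham livers (n = 5). All 7 PHx48 livers, at 1.66 to 3.43, lay above all sham livers, at 0.640 to 1.08. The summed FPKM of Acsl1, Acsl3, Acsl4, Acsl5 and Acsl6 averaged 150 ± 14.1 in PHx48_ETO, 161 ± 36.8 in PHx48, 104 ± 16.0 in PHx24_ETO, 96.2 ± 11.04 in PHx24 and 182 ± 48.0 in sham livers. The sum was thus lower at 24 h than in any sham liver, in both 24 h groups. These sums and ratios are descriptions without a test.

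**Figure D3:**
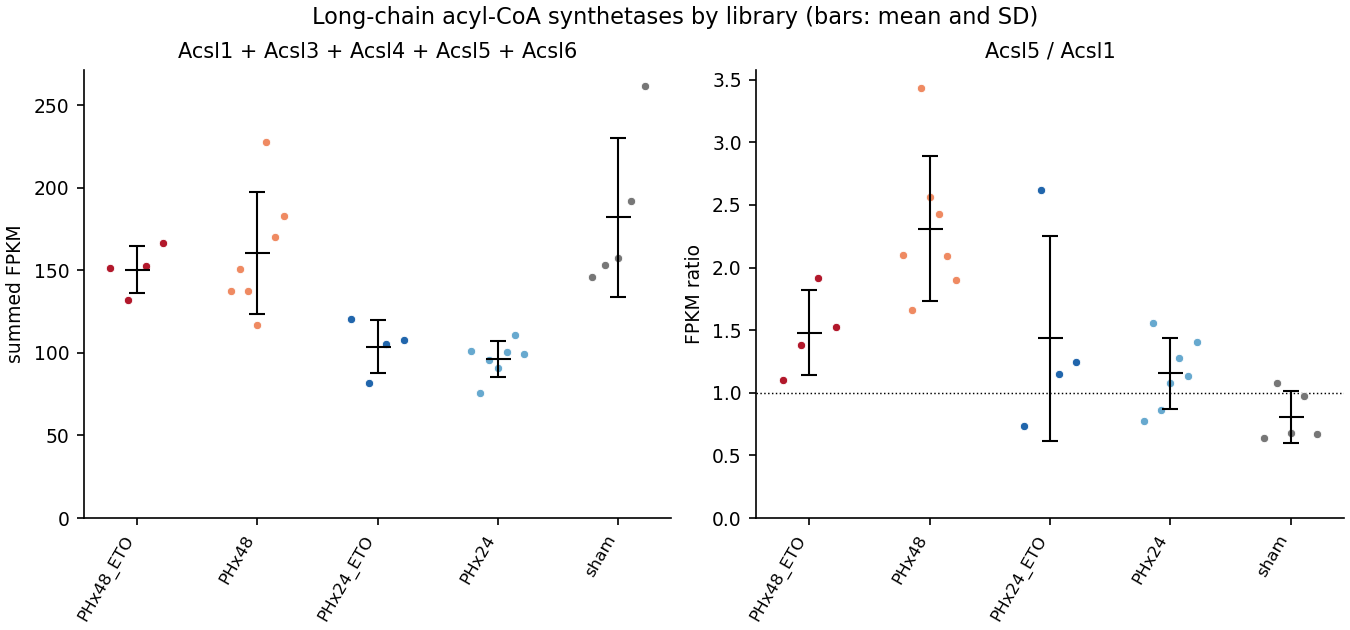
Summed FPKM of Acsl1, Acsl3, Acsl4, Acsl5 and Acsl6 (left) and the Acsl5 to Acsl1 ratio of FPKM (right) in every liver library, by group, with the mean and SD; the dotted line marks a ratio of 1. The ratio is above 1 in all PHx48_ETO and PHx48 livers.

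Cpt1a had 37.9, 46.5 and 53.4 FPKM in PHx48 livers and 35.1, 40.8 and 46.3 FPKM in PHx24 livers (lowest, median, highest), against 46.2, 54.4, 76.3, 53.3 and 90.9 FPKM in sham livers. The sham livers ran widely, and their first one, which held muscle transcripts, was within the range of both resected groups. Cpt1a mRNA fell by 0.62 at 24 h (SE 0.16, edgeR adjusted p = 0.00362) and by 0.45 at 48 h (SE 0.16, edgeR adjusted p = 0.0272). The 24 h call was lost in TPM (limma adjusted p = 0.106). The 48 h call was lost without sham 5 (adjusted p = 0.115) or sham 3 (0.0705), with library totals (0.335), with no filter (0.056) and in TPM (limma adjusted p = 0.781). With etomoxir Cpt1a was not called against sham, with log2 fold changes of 0.10 in PHx48_ETO (95% interval -0.28 to 0.48) and 0.13 in PHx24_ETO (-0.25 to 0.51).

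Slc22a5 moved in opposite directions at 24 h and 48 h. PHx48 livers had 2.94, 4.32 and 5.42 FPKM and PHx24 livers 6.96, 8.60 and 12.2 FPKM (lowest, median, highest), against 6.04, 7.48, 6.67, 4.92 and 8.02 FPKM in sham livers. No PHx48 liver reached the lowest PHx24 liver, while both groups overlapped the sham range. Against sham it rose by 0.50 at 24 h (SE 0.17, edgeR adjusted p = 0.0213) and fell by 0.63 at 48 h (SE 0.16, edgeR adjusted p = 0.00381), and PHx48 livers were lower than PHx24 livers (log2 fold change -1.12, SE 0.15, edgeR adjusted p = 1.75e-05). The 24 h rise was lost without sham 4 (adjusted p = 0.0891), sham 1 (0.0549) or PHx24 5 (0.0546), and the 48 h fall with library totals (0.0683) and in TPM (limma adjusted p = 0.255). The fall between 24 h and 48 h was called in all 23 alternatives. In treated livers it was -0.99 (PHx48_ETO against PHx24_ETO, SE 0.20, edgeR adjusted p = 0.00123), and PHx24_ETO livers were above all sham livers with a rise of 1.27 on the log2 scale (SE 0.19, edgeR adjusted p = 1.42e-05).

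Between 48 h and 24 h without etomoxir 4 of the 10 genes were called, Acsl3 and Acsl5 higher and Slc22a5 and Crot lower, against 11.6% of all genes (6.19% higher, 5.41% lower). Against sham, PHx24_ETO livers had 5 calls, Slc25a20 and Slc22a5 higher and Mlycd, Acsl1 and Acsl5 lower, against 35.2% of all genes (19.7% higher, 15.6% lower), and PHx48_ETO livers had 2, Mlycd and Acsl1 lower, against 29.5% (16.2% higher, 13.3% lower). Between the treated groups 2 were called, Acsl5 higher and Slc22a5 lower at 48 h, against 15.0% of all genes (7.31% higher, 7.73% lower).

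Slc25a20 fell by 0.42 at 48 h (SE 0.11, edgeR adjusted p = 0.0036), with 13.03, 16.3 and 21.3 FPKM in PHx48 livers (lowest, median, highest), against 19.5, 19.7, 23.9, 22.0 and 30.3 FPKM in sham livers. Of the PHx48 livers, 6 of 7 lay below every sham liver. The call was lost with library totals (adjusted p = 0.102) and in TPM (limma adjusted p = 0.604). At 24 h the log2 fold change against sham was -0.17 (95% interval -0.40 to 0.05, edgeR adjusted p = 0.222), and it was called without the 4 libraries that held other tissues (-0.33, edgeR adjusted p = 0.043). PHx24_ETO livers were called higher than sham by 0.33 (SE 0.12, edgeR adjusted p = 0.0387), a call made in 7 of 18 alternatives and gone without those libraries (log2 fold change 0.19, adjusted p = 0.297). Cpt2 was not called in any of the 9 comparisons by the main edgeR fit or DESeq2, with an unadjusted edgeR p under 0.05 in PHx48_ETO against PHx48 (0.0192) and PHx48 against PHx24 (0.0251). Against sham it was called in 2 of 18 alternatives in PHx48_ETO, 2 of 18 in PHx24_ETO and 1 of 21 in PHx24. PHx48 against PHx24 was called in 1 of 23, and no other comparison in any. It averaged 82.3 ± 9.27 FPKM in PHx48_ETO, 66.6 ± 13.2 in PHx48, 86.7 ± 8.11 in PHx24_ETO, 78.9 ± 9.98 in PHx24 and 72.2 ± 9.06 in sham livers (SD), with log2 fold changes against sham of 0.15 at 24 h (95% interval -0.09 to 0.39) and -0.10 at 48 h (-0.34 to 0.14).

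**Figure D4:**
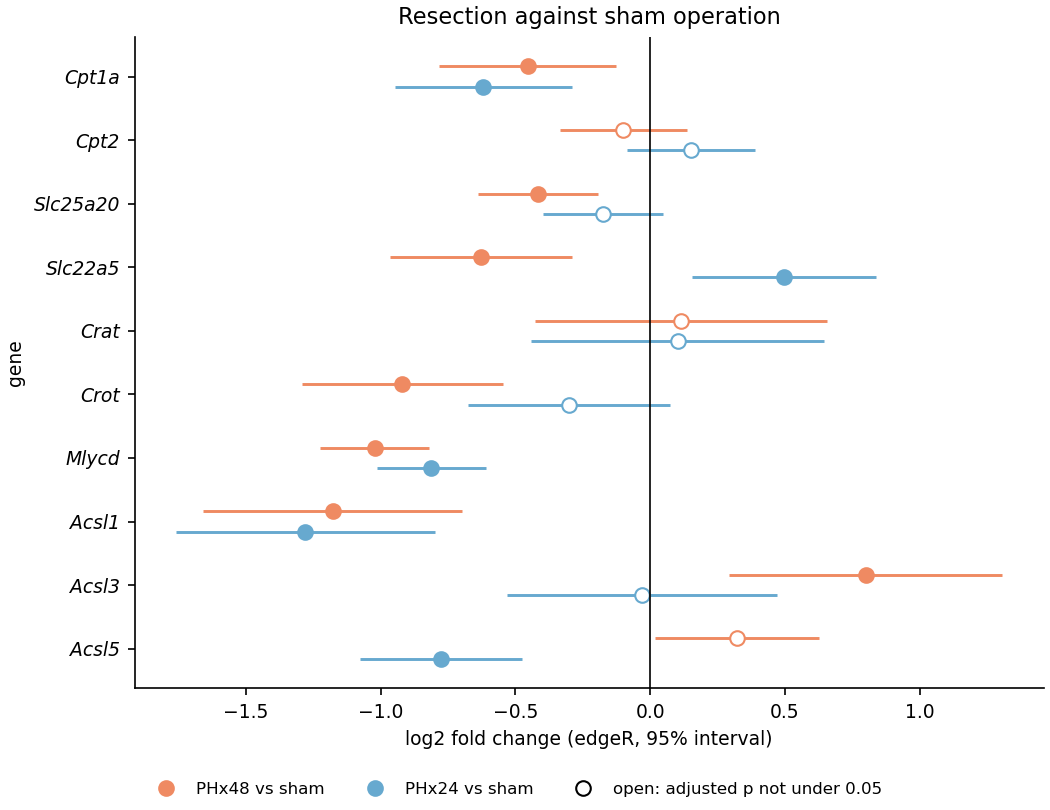
Log2 fold change of each gene after resection without etomoxir against sham (horizontal axis), at 48 h (orange) and 24 h (light blue), with 95% intervals from edgeR; filled points were called at an adjusted p under 0.05. Acsl1 and Mlycd are filled and below 0 at both times, and Slc22a5 lies on opposite sides of 0.

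Mlycd encodes malonyl-CoA decarboxylase, which removes the inhibitor of carnitine palmitoyltransferase 1 (ENSMUSG00000074064, chromosome 8, 119394878 to 119411102). It had 19.0, 21.5 and 23.6 FPKM in PHx48 livers and 23.9, 24.7 and 27.05 FPKM in PHx24 livers (lowest, median, highest), against 39.2, 38.1, 52.8, 43.0 and 50.9 FPKM in sham livers. No resected liver reached the lowest sham liver. The PHx48 livers also lay below every PHx24 liver, but that difference was small and not called. Its log2 fold change was -0.21 (95% interval -0.40 to -0.02, edgeR adjusted p = 0.14), called in 1 of 23 alternatives. Mlycd mRNA fell by 0.81 at 24 h (SE 0.10, edgeR adjusted p = 1.12e-06) and by 1.02 at 48 h (SE 0.10, edgeR adjusted p = 2.42e-08), called in all 21 alternatives each. With etomoxir it fell against sham too, with 22.99, 25.4, 20.8 and 35.2 FPKM in PHx48_ETO livers (log2 fold change -0.76, edgeR adjusted p = 2.01e-05) and 26.8, 28.8, 30.0 and 28.1 FPKM in PHx24_ETO livers (-0.65, edgeR adjusted p = 0.000116).

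Crot had 67.2, 85.8 and 102 FPKM in PHx48 livers and 111, 120 and 201 FPKM in PHx24 livers (lowest, median, highest), against 127, 114, 167, 200 and 226 FPKM in sham livers. The PHx48 livers lay below every liver of both other groups. Crot mRNA fell by 0.92 at 48 h against sham (SE 0.18, edgeR adjusted p = 0.000272) and by 0.62 against PHx24 (SE 0.17, edgeR adjusted p = 0.016), called in all 21 and 23 alternatives. At 24 h its log2 fold change against sham was -0.30 (95% interval -0.68 to 0.07, adjusted p = 0.209 with edgeR).

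Crat had 8.41, 10.6 and 11.3 FPKM in PHx48 livers and 6.56, 8.77 and 15.6 FPKM in PHx24 livers (lowest, median, highest), against 20.7, 6.31, 5.59, 6.18 and 7.40 FPKM in sham livers. With all livers the log2 fold change was 0.12 at 48 h and 0.10 at 24 h, and neither was called (edgeR adjusted p = 0.763 and 0.8). In the treated groups it was 0.71 in PHx48_ETO (edgeR adjusted p = 0.073), called in 7 of 18 alternatives, and 0.34 in PHx24_ETO (0.396). Without sham 1 it was 0.67 at 48 h (edgeR adjusted p = 0.00553) and 0.65 at 24 h (0.00755), and in the treated groups 1.27 in PHx48_ETO (5.66e-05) and 0.89 in PHx24_ETO (0.00162). The 14 skeletal muscle genes summed to 5420 FPKM in sham 1, 2023 FPKM in PHx24 1 and 639 FPKM in PHx48 3, against 0.564 to 96.0 FPKM in the other 24 libraries, and none of the 14 was at 0 in sham 1. The sum of 6 adipocyte genes was also highest in sham 1, at 219 FPKM. PHx24 1 was the highest PHx24 liver for Crat, at 15.6 FPKM. The part of muscle RNA in the Crat values was not tested. Crat shares 59 exon bases with Dolpp1 and 411 with Gm16323 on the opposite strand.

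**Figure D5:**
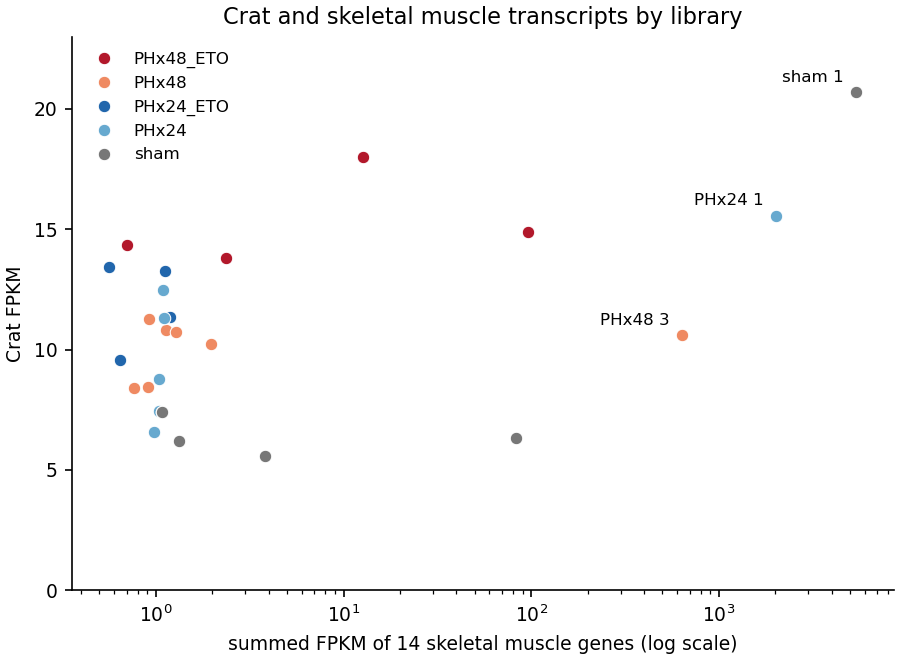
Crat FPKM (vertical axis from 0) against the summed FPKM of 14 skeletal muscle genes (horizontal axis, log scale) in each of the 27 liver libraries, coloured by group. Sham 1 is at 20.7 and the other sham livers at 5.59 to 7.40 FPKM.

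Other genes of the pathway were listed by role, leaving out the 10 above. For comparison with the counts below, 1.58% of all genes were called higher with etomoxir and 1.33% lower at 24 h. At 48 h these shares were 0.129% and 0.0808%. With etomoxir none of 21 tested genes for related activation and carnitine steps was called by edgeR at either time (5 had an unadjusted p under 0.05 at each time, against 2401 and 1004 of the 12376 genes, and DESeq2 called 2 at 24 h and 0 at 48 h). None of 3 genes of carnitine synthesis was called either, or had an unadjusted p under 0.05. Of 19 genes of mitochondrial beta oxidation, 1 was higher at 24 h and 2 at 48 h, with list medians of 0.18 and 0.38 on the log2 scale beside 0.01 and -0.01 over all genes. The long-chain acyl-CoA dehydrogenase Acadl averaged 153 ± 21.9 FPKM in PHx24_ETO and 105 ± 13.2 FPKM in PHx24 livers (SD, n = 4 and 7 here and below, log2 fold change 0.52, edgeR adjusted p = 0.0117). At 48 h the medium-chain dehydrogenase Acadm averaged 150 ± 18.5 FPKM in PHx48_ETO and 97.0 ± 7.37 FPKM in PHx48 livers (0.62, edgeR adjusted p = 0.0302). Hadhb, a subunit of the trifunctional protein, averaged 36.8 ± 4.999 FPKM in PHx48_ETO and 24.7 ± 0.477 FPKM in PHx48 livers (0.57, edgeR adjusted p = 0.0302).

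Among 14 genes of peroxisomal oxidation, with list medians of 0.16 at 24 h and 0.22 at 48 h, 1 rose with etomoxir at each time, Pex11a at 24 h (42.8 ± 35.2 FPKM in PHx24_ETO and 17.4 ± 0.608 FPKM in PHx24 livers, edgeR adjusted p = 0.00887) and Ehhadh at 48 h (247 ± 52.8 FPKM in PHx48_ETO and 83.7 ± 23.7 FPKM in PHx48 livers, edgeR adjusted p = 0.0305). The Pex11a log2 fold change of 1.28 was 0.52 without PHx24_ETO 2, and 1.46 to 1.48 without any other PHx24_ETO liver. Of 13 further PPARA targets, 1 was higher at 24 h and 3 at 48 h, with list medians of 1.08 and 1.21. Angptl4, an inhibitor of lipoprotein lipase, rose by 1.63 at 24 h (edgeR adjusted p = 0.0166). At 48 h Cyp4a14 and Cyp4a10, omega-hydroxylases of fatty acids whose near-identical copies make their counts uncertain, rose by 2.96 and 2.38 (edgeR adjusted p = 0.037 and 0.0308), and the pantetheinase Vnn1 by 1.32 (0.0302).

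Of 9 genes that make malonyl-CoA or regulate its making, 1 was called with etomoxir, lower at 48 h. Acacb, the acetyl-CoA carboxylase of the mitochondrial surface, averaged 2.87 ± 0.640 FPKM in PHx48_ETO and 9.76 ± 4.67 FPKM in PHx48 livers (log2 fold change -1.76, edgeR adjusted p = 0.0237). Srebf1, a regulator of fatty acid synthesis, was the single called gene of 10 regulators and averaged 16.7 ± 5.24 FPKM in PHx24_ETO and 44.9 ± 21.7 FPKM in PHx24 livers (-1.44, edgeR adjusted p = 0.0208).

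Calls of these listed genes with etomoxir were lost when single livers were left out. At 24 h none of the 4 (Acadl, Pex11a, Angptl4 and Srebf1) was called by edgeR without PHx24_ETO 2 (adjusted p = 0.0605 to 0.0874) or with only the compared groups in the fit (0.0551 to 0.135), where no gene was called. Srebf1 was also lost without PHx24_ETO 3 (0.0537) or PHx24_ETO 4 (0.0645). At 48 h none of the 7 (Acadm, Hadhb, Ehhadh, Cyp4a14, Cyp4a10, Vnn1 and Acacb) was called by edgeR without PHx48_ETO 3 (adjusted p = 0.125 to 0.164), PHx48_ETO 1 (0.0686 to 0.106) or PHx48 7 (0.0501 to 0.0755), where 1, 3 and 7 genes in all were called. Leaving out any other liver of the compared groups kept 1 to 4 of the 7 calls, and with no filter on low values 1 was kept, Acacb. With only the compared groups in the fit, or with the replicate number as a block, 6 of the 7 were kept, all but Acacb (edgeR adjusted p = 0.0809 and 0.084).

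After resection without etomoxir, 9 of the 21 related activation and carnitine genes were lower and 1 higher at 24 h, and 10 lower and 1 higher at 48 h, with list medians of -0.82 and -0.63 beside 0.01 over all genes. Slc27a2, a very-long-chain synthetase and fatty acid transporter, averaged 125 ± 26.7 FPKM in PHx48 and 296 ± 84.6 FPKM in sham livers (SD, n = 7 and 5, log2 fold change -1.22, edgeR adjusted p = 1.54e-06). Acsl4, the synthetase that prefers arachidonate, averaged 22.1 ± 3.65 FPKM in PHx48 and 12.3 ± 2.39 FPKM in PHx24 livers (0.85, edgeR adjusted p = 0.000154). Bbox1, the last enzyme of carnitine synthesis, averaged 13.8 ± 2.42 FPKM in PHx24 and 28.6 ± 6.71 FPKM in sham livers (-1.02, edgeR adjusted p = 0.000174). Of the 19 beta oxidation genes 6 were lower and none higher at 24 h, and 8 lower and 2 higher at 48 h, with a list median of -0.22 at each time. Of the 14 peroxisomal genes 6 were lower at 24 h and 9 at 48 h, and none was higher. Over all genes tested, 15.8% were called lower and 19.1% higher at 24 h, and 17.0% and 19.5% at 48 h. Ppara itself averaged 9.24 ± 1.86 FPKM in PHx48 and 17.2 ± 6.42 FPKM in sham livers (-0.87, edgeR adjusted p = 0.00215), and 8.98 ± 1.38 FPKM in PHx24 livers (-0.91, edgeR adjusted p = 0.00165).

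Within groups, the genes of the set did not all vary together. Over the deviations of the 27 libraries from their group means, Cpt2 and Slc25a20 had the highest Pearson correlation of the 45 gene pairs (r = 0.850), followed by Slc25a20 with Acsl5 (0.622) and Crot with Acsl1 (0.613), and Mlycd with Acsl3 the lowest (-0.328). Over all 27 libraries the tested genes whose log2(FPKM + 1) was most like that of Cpt1a were Fgd6 (Pearson r = 0.846), Kdsr (0.820), Grpel2 (0.814), Rasal2 (0.798) and Mtor (0.788). For Acsl1 they were Ptprd (0.930), Cat (0.922), Deptor (0.915), Aldh6a1 (0.915) and Cyp8b1 (0.912). These correlations share the libraries and their scaling and are given as a description.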

How the data were processed

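RNA was measured in 27 mouse liver libraries in 5 groups, taken from the sample labels. The submitters' processing notes name CASAVA 1.8, fastp, DESeq2 1.20.0, HISAT2 2.0.5 and featureCounts 1.5.0-p3, and as builds mm10 and GRCm38; what each tool did is not given in the sources used here. A deposited table holds a raw count and an FPKM value per gene and library, both made by the authors. Tested on the table, FPKM equalled the count over gene length and over a library size of 12965192 to 20459716 counts, constant within a library. The libraries were prepared with NEBNext Ultra, per the labels' protocols, a kit that does not mark strand. Gene coordinates are the table's, and 9 of the 10 genes have the same ones in GENCODE M21 (Cpt1a differs).

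Testing covered 12376 genes that reached 1 FPKM in 4 or more libraries. R 4.3.3 with edgeR 4.0.16 was run on the counts (TMM, quasi-likelihood F test, all 27 libraries in 1 fit, Benjamini-Hochberg adjustment over the tested genes, call at an adjusted p under 0.05; biological coefficient of variation 0.266). Adjusted p-values are edgeR's where no other tool is named. The SE is the log2 fold change over the square root of F. The script was tested on simulated data. Alternatives were DESeq2 1.42.0, library totals, limma 3.58.1 on log2(FPKM + 1), log2(FPKM + 0.1) and log2(TPM + 1), no filter, the compared groups only, no libraries with other tissues, a replicate block and each library left out. The genes, lists, motif and comparisons were chosen with earlier results of these data known. All 10 genes are named, with at most the 3 called genes of largest change per other list and comparison, and the 5 genes most like Cpt1a and Acsl1.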

Additional observations from a re-analysis of the deposited data

Results flagged for a closer look

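In 5 of the 50 sets of 1 gene in 1 group, the highest or lowest liver stood apart from the rest by Dixon's criterion at 95%, which chance passes in about 1 in 20 sets. Slc22a5 had 10.5 FPKM in PHx48_ETO 1, and the next liver of that group had 7.24 FPKM. Crat had 20.7 FPKM in sham 1, where the 14 skeletal muscle genes summed to 5420 FPKM, and the next sham liver had 7.40 FPKM. Crot had 66.6 FPKM in PHx24_ETO 2, and the next liver had 144 FPKM. Crot also had 201 FPKM in PHx24 6, and the next liver had 144 FPKM. Acsl1 had 145 FPKM in sham 5, and the next sham liver had 86.8 FPKM.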

How the results depend on the processing

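Of 1890 values of the 10 genes under alternatives, 62 changed sign, none of them a called value, 54 calls were lost and 35 gained. DESeq2 gave no adjusted p for 810 values, none of them of the 10 genes. In PHx24_ETO against PHx24, 359 genes were called, 753 with DESeq2, 196 with no filter and 0 with the compared groups only, where 0 of the 10 were called (2058 genes and 4 of the 10 had an unadjusted p under 0.05); leaving out a library gave 138 (without PHx24_ETO 2) to 1199 genes (without PHx24_ETO 1) and 0 to 3 of the 10. In PHx48_ETO against PHx48, 26 genes were called, 67 with DESeq2 and 11 with no filter, and of the 10 genes 1 with no filter, log2(FPKM + 0.1) or TPM; leaving out a library gave 1 to 25 genes and 0 to 2 of the 10. PHx24_ETO against sham had 2656 genes, and PHx48_ETO against PHx24_ETO 620, with the compared groups only. PHx48_ETO against sham called 6 of the 10 with library totals or TPM and 1 to 3 with a library left out. PHx48_ETO against PHx24_ETO called 1 of the 10 with no filter and 1 to 2 with a library left out, with 1319 to 2256 genes. The difference between etomoxir effects held 2 genes, 42 with DESeq2, 1 in TPM and 0 to 239 with a library left out. The cause of these changes was not tested.

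Deviations from the group means correlated above 0.1 in 12 of 45 pairs of same-numbered livers (median 0.0202), and 5 of 27 livers correlated best with their own number. The highest values were 0.655 for sham 1 with PHx24 1 and 0.411 for PHx24 2 with PHx24_ETO 2. Such correlations cannot settle whether the replicate numbers pair the samples. With the number as a replicate block, 44 genes were called in PHx48_ETO against PHx48 and 4 of the 10 in PHx48_ETO against sham (Crat and Acsl3 added).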
